A study of Mus musculus with 8 samples.

Results

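Voltage-gated calcium channels are described here by 10 transcripts, 8 for the subunits that form the pore and 2 for alpha2delta subunits, taken by gene symbol from 32531 genes in each count table. The members are Cacna1a, Cacna1b, Cacna1c, Cacna1d, Cacna1e, Cacna1g, Cacna1h, Cacna1i, Cacna2d1 and Cacna2d3. The RNA came from Drd1-TRAP mice of the CP73 line (Drd1-EGFP/Rpl10a), aged to more than 20 months and given no treatment, in which a promoter of the gene for dopamine receptor D1 drives a ribosomal protein tagged with green fluorescent protein. Tagged polysomes were immunopurified with antibodies against the fluorescent protein, 4 libraries from dorsal striatum and 4 from accumbens. Both groups carried the same transgene, and the comparison is between the regions alone. The labels do not say whether a library came from 1 mouse or from several, so the p-values measure the spread between these libraries, which may be technical.

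A voltage-gated calcium channel opens when the membrane depolarizes and lets calcium into the cell. Its alpha1 subunit holds the pore and sets the class. L-type channels are known for coupling dendritic depolarization to gene expression, P/Q-, N- and R-type channels for transmitter release and for calcium entry in dendrites and spines, and T-type channels for opening near the resting potential. Alpha2delta and beta subunits are auxiliary proteins that bring the high-voltage-activated pores (all but T-type) to the surface and tune their gating. In striatal projection neurons, dopamine receptor signalling is known to modulate several of these channels.

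Gene counts per library ranged from 7466970 to 12639641, and all 4 accumbens libraries had more than any dorsal one. A count of 3 corresponded to 0.237 to 0.415 CPM (counts scaled to a common TMM-adjusted library size). Accumbens 2 and dorsal striatum 3 lay at opposite ends of the first principal component. Drd1, the gene behind the transgene's promoter, stood at 605 ± 60.9 CPM in the dorsal libraries and 435 ± 86.5 CPM in accumbens (SD, n = 4 each). Its log2 fold change, accumbens over dorsal striatum, was -0.47 ± 0.14 SE (edgeR adjusted p = 0.0750). Summed, 6 D1 projection neuron markers ran from 2118 to 2438 CPM (dorsal) and from 1852 to 2126 CPM (accumbens). In edgeR, 1 of the 6 was called higher in accumbens (Pdyn, 1.02) and 1 lower (Eya1, -0.55), beside 1.6% and 2.12% of all tested genes. Defining markers of some other cells were low. Summed levels of 7 microglia markers were 0.887 to 3.39 CPM in the dorsal libraries and 1.88 to 13.2 CPM in accumbens. Those of 4 cholinergic interneuron markers were 0.355 to 4.03 and 0.987 to 10.4 CPM. C1qa and Slc18a3 were at 0 in all 8 libraries, while Csf1r reached 5.06 CPM and Lhx8 10.2 CPM, both in accumbens 3. Others were higher in at least some libraries, and also uneven. Summed D2 projection neuron markers ran from 218 to 328 CPM in the dorsal libraries and from 620.0 to 898 CPM in accumbens, astrocyte markers from 197 to 372 and from 256 to 698 CPM, and excitatory neuron markers from 3.94 to 99.6 and from 20.6 to 96.6 CPM. Oligodendrocyte markers ran from 121 to 190.4 and from 127 to 320.5 CPM, GABA interneuron markers from 36.2 to 139 and from 73.1 to 166 CPM, endothelial markers from 6.15 to 59.9 and from 5.37 to 174 CPM, and mural markers from 1.77 to 30.7 and from 3.16 to 52.4 CPM. Markers of oligodendrocyte precursors were low again, at 1.77 to 8.80 CPM in the dorsal libraries and 4.9 to 12.7 CPM in accumbens. Most neurons make calcium channels, and the part of such cells in the levels below was not tested. In tissue pulldowns, fewer cells of a type and less RNA per cell cannot be told apart.

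The most and the least abundant channel transcripts were the same in both regions. Cacna1e, the R-type pore, had the highest CPM of the 10 in every library, Cacna1d and Cacna1g the lowest, and 0 of 10 members differed between regions at an adjusted p under 0.05 (edgeR quasi-likelihood test, adjusted by Benjamini-Hochberg over 12467 tested genes). The share of all tested genes called was 3.72% (1.6% higher and 2.12% lower in accumbens), and 0 of 10 lies near it. Among the 6269 genes averaging at least 20 CPM, as 9 of the members do, 6.28% were called and 13% had no overlap between regions. All 10 members passed the filter on low counts. At an unadjusted p under 0.05 there was 1 member, Cacna1i, where 14.8% of all tested genes passed. DESeq2 and limma-voom also called 0 members, where they called 5.76% and 4.17% of the genes they tested. The lowest adjusted p that any member had over all 19 fits was 0.256. The members' median log2 fold change, accumbens over dorsal striatum, was -0.22, with 8 negative and 2 positive, beside a median of 0.02 over all tested genes. Of those 12467 genes, 6009 were negative and 6458 positive. All 8 markers shared by striatal projection neurons were negative (median -0.73), and all 5 D2 projection neuron markers positive (median 1.29). The part of these cells in the members' values was not tested.

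Precision differed among the members. For 9 of the 10 the 95% interval of the regional difference lay within 2-fold in either direction, and for 5 of them (Cacna1b, Cacna1c, Cacna1e, Cacna2d1 and Cacna2d3) within 1.5-fold. Cacna1g was the exception, with an interval from 0.152-fold to 2.22-fold. In 1 set of simulated counts for this comparison, the test called 2.04% of 49 genes changed 1.5-fold and 34% of 50 genes changed 2-fold. Those genes were drawn from all abundances, so the rates are not those of the members. The fitted spread between libraries (biological coefficient of variation) had a median of 0.171 for genes over 100 CPM. It was 0.318 at 5 to 100 CPM and 0.771 under 5 CPM. Exons of Cacna1a, Cacna1d and Cacna1h share 3.81%, 4.67% and 1.62% of their bases with 1 gene each on the opposite strand in GENCODE M21, and the other 7 members share none. Whether reads of those neighbours were counted was not tested. The counts are per gene, so splice forms of a channel cannot be told apart.

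**Figure D1:**
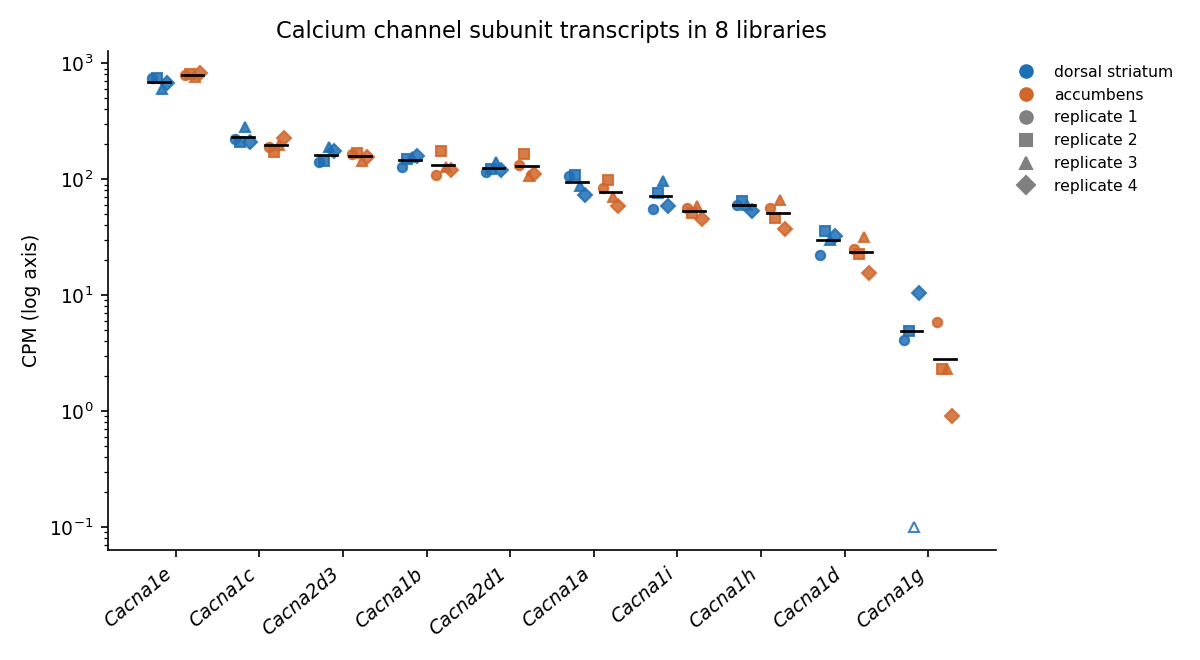
CPM (log axis) of the 10 members in each of the 8 libraries, ordered by mean; blue is dorsal striatum, orange accumbens, marker shapes are replicate numbers and black lines are region means. The open triangle drawn at the bottom of the axis stands for the count of 0 of Cacna1g in dorsal striatum 3; Cacna1e is the 1 member whose regions do not overlap.

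Among the pores of the transmitter release classes, Cacna1e (chromosome 1, 154390731 to 154884501 in GRCm38) had 752, 748, 597 and 678 CPM in the 4 dorsal libraries and 788, 806, 763 and 816 CPM in the 4 accumbens libraries. The lowest accumbens library was above the highest dorsal one, and dorsal striatum 3 was the lowest of all. Groups without overlap were found for 9.69% of all tested genes, 4.51% with accumbens above and 5.18% with accumbens below, and 1 of 10 members is close to the first share. The means were 694 ± 73.1 and 793 ± 23.5 CPM (SD, n = 4 each), a log2 fold change of 0.19 ± 0.11 SE that was not called (edgeR adjusted p = 0.458, interval 0.972-fold to 1.35-fold). It was 0.13 without dorsal striatum 3 and 0.12 without both dorsal striatum 3 and accumbens 2. By mean CPM, Cacna1e was above 98.7% of all tested genes.

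Cacna1b, the N-type pore that many presynaptic terminals use for release (chromosome 2, 24603887 to 24763152), had 126, 149.6, 154 and 157 CPM in the dorsal libraries and 109, 174, 127 and 121 CPM in the accumbens libraries. Accumbens 2 was the highest library and accumbens 1 the lowest, so the accumbens values enclosed the dorsal ones. The log2 fold change was -0.15 ± 0.16 SE (edgeR adjusted p = 0.765, interval 0.713-fold to 1.15-fold), and ran from -0.31 without accumbens 2 to -0.06 without accumbens 1. Cacna1a, the P/Q-type pore of fast synapses (chromosome 8, 84388440 to 84640246), had 107, 109.6, 87.7 and 73.7 CPM in the dorsal libraries and 84.4, 99.1, 70.6 and 58.8 CPM in the accumbens libraries. Its 2 highest values were dorsal and its 2 lowest were in accumbens 3 and 4, with overlap between. For Cacna1a the log2 fold change was -0.27 ± 0.19 SE (edgeR adjusted p = 0.582, interval 0.626-fold to 1.10-fold). Leaving out 1 library took that of Cacna1a from -0.41 (accumbens 2) to -0.15 (accumbens 4).

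Of the L-type pores, Cacna1c was above Cacna1d in all 8 libraries. Cacna1c, the main L-type pore of brain and heart (chromosome 6, 118587240 to 119196418), had 224, 209, 284 and 209 CPM in the dorsal libraries and 191, 172, 196 and 227 CPM in the accumbens libraries. Dorsal striatum 3 stood highest, and accumbens 4 reached above 3 of the 4 dorsal libraries. The means were 232 ± 35.7 and 197 ± 22.6 CPM (SD, n = 4 each), a log2 fold change of -0.23 ± 0.14 SE (edgeR adjusted p = 0.489, interval 0.690-fold to 1.05-fold). Without dorsal striatum 3 the log2 fold change of Cacna1c was -0.12, and without both that library and accumbens 2 it was -0.06. Cacna1d, the L-type pore that opens at more negative voltages (chromosome 14, 30039939 to 30491455), had 22.4, 35.9, 30.2 and 32.3 CPM in the dorsal libraries and 25.0, 22.6, 31.9 and 15.6 CPM in the accumbens libraries. Accumbens 4 was the lowest and the other values were mixed between regions. Its log2 fold change was -0.34 ± 0.27 SE (edgeR adjusted p = 0.626, interval 0.533-fold to 1.16-fold), and -0.19 without accumbens 4. Per kilobase of exon, the ratio of Cacna1c to Cacna1d was 4.73 ± 1.25 over the dorsal libraries and 5.36 ± 2.25 over the others (SD, n = 4 each), and its ranges overlapped.

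The 3 T-type pores were all lower in mean in accumbens, and 0 were called. Cacna1i (chromosome 15, 80287238 to 80398279) had 55.7, 76.5, 97.4 and 59.0 CPM in the dorsal libraries and 56.2, 51.4, 59.3 and 45.1 CPM in the accumbens libraries. Dorsal striatum 3 and 2 were above all accumbens libraries, while dorsal striatum 1 and 4 lay among them. The log2 fold change of Cacna1i was -0.44 ± 0.20 SE, with an unadjusted p of 0.0441 and an adjusted p of 0.314 in edgeR (interval 0.545-fold to 0.991-fold). Without dorsal striatum 3 the log2 fold change of Cacna1i was -0.27 (edgeR adjusted p = 0.660).

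Cacna1h (chromosome 17, 25374285 to 25433783) had 59.4, 65.2, 59.5 and 53.2 CPM in the dorsal libraries and 56.2, 46.8, 66.0 and 37.2 CPM in the accumbens libraries. The dorsal values lay close together, and accumbens held both the highest and the lowest library. For Cacna1h this was a log2 fold change of -0.20 ± 0.20 SE (edgeR adjusted p = 0.729, interval 0.645-fold to 1.17-fold), with a range from -0.34 without accumbens 3 to -0.08 without accumbens 4. Cacna1g (chromosome 11, 94408391 to 94474198) was the sparsest member, with 35, 46, 0 and 106 counts in dorsal striatum and 65, 27, 29 and 11 counts in accumbens. These are 4.14, 4.88, 0 and 10.45 CPM, then 5.83, 2.30, 2.29 and 0.911 CPM, and the count of 0 in dorsal striatum 3 allows up to 0.415 CPM, for counting error only. The regions overlapped fully, and the log2 fold change was -0.79 ± 0.92 SE (edgeR adjusted p = 0.782), between -1.40 without accumbens 1 and -0.09 without dorsal striatum 4.

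Libraries of 1 region scattered by more than counting error for every member. The coefficient of variation of Cacna1g was 88.3% in dorsal striatum and 74.2% in accumbens, where its mean count alone would give 15.8%. For the other 9 members it ran from 7.24% (Cacna2d3) to 28.3% (Cacna1d) in accumbens, apart from 2.96% for Cacna1e, and from 8.28% (Cacna1h) to 26.5% (Cacna1i) in dorsal striatum. Counting error at their mean counts would give 1.13% to 6.02%. Accumbens 4 was the lowest of the 8 libraries for 4 members (Cacna1a, Cacna1d, Cacna1h and Cacna1i), and dorsal striatum 3 was the highest for 3 (Cacna1c, Cacna1i and Cacna2d3) and the lowest for 2 (Cacna1e and Cacna1g). Accumbens 4 also held the highest sums of endothelial and mural markers (174 and 52.4 CPM) and the lowest of the accumbens sums of excitatory neuron, GABA interneuron and astrocyte markers (20.6, 73.1 and 256 CPM). Dorsal striatum 3 held the highest endothelial and mural sums of its region (59.9 and 30.7 CPM). It also held the lowest sums of D2 projection neuron and GABA interneuron markers of the 8 libraries (218 and 36.2 CPM). Their part in the members' values was not tested.

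The 2 alpha2delta members, extracellular proteins that raise channel number at the surface and are the family that gabapentin-type drugs bind through some of its members, had the smallest log2 fold changes of the 10. Cacna2d1 (chromosome 5, 15934691 to 16374511) had 116, 122, 142 and 120.2 CPM in the dorsal libraries and 133, 165, 108 and 111 CPM in accumbens, and accumbens held both extremes. The log2 fold change was 0.05 ± 0.16 SE (edgeR adjusted p = 0.945, interval 0.815-fold to 1.31-fold), and its sign turned without accumbens 2 (-0.09). Cacna2d3 (chromosome 14, 28904943 to 29721864) had 142, 144, 188 and 177 CPM in the dorsal libraries and 165, 169, 143 and 157 CPM in accumbens, and every accumbens value lay within the dorsal range. The log2 fold change was -0.04 ± 0.14 SE (edgeR adjusted p = 0.947, interval 0.789-fold to 1.20-fold). Cacna2d2, an alpha2delta gene outside the 10, averaged 153 CPM in dorsal striatum, with an SD of 12, and 149.6 ± 21.5 CPM in accumbens, a difference that was not called (log2 fold change -0.03 ± 0.15 SE, edgeR adjusted p = 0.964). The sign of the last 2 also turned under some settings, always within 0.05 of 0 on the log2 scale.

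**Figure D2:**
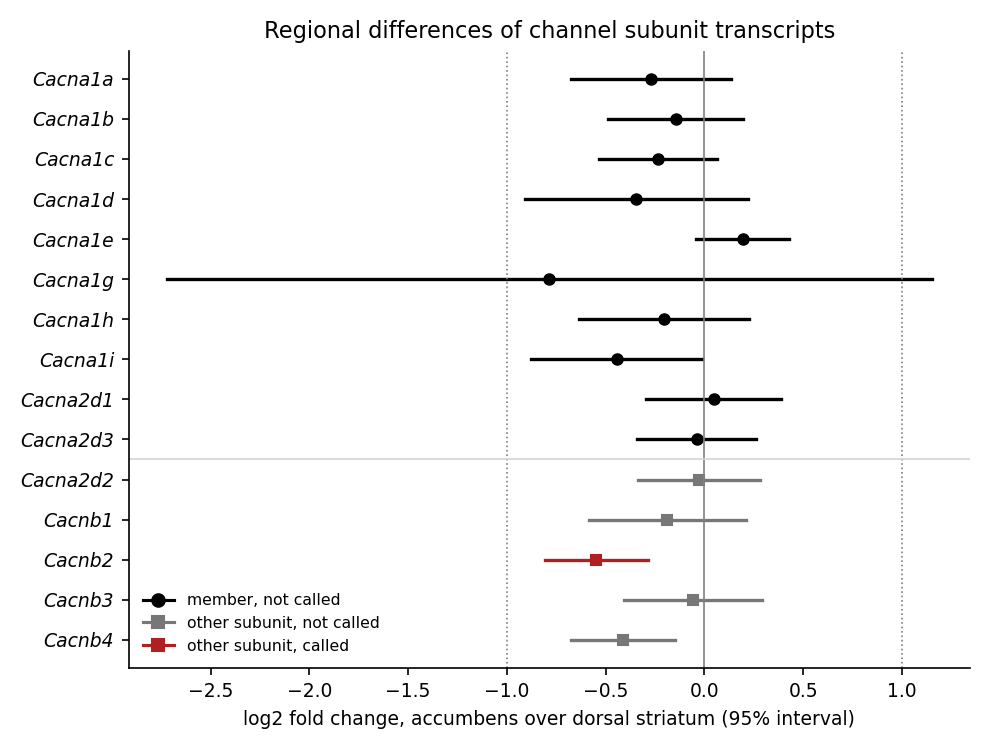
Log2 fold change, accumbens over dorsal striatum, with its 95% interval from edgeR, for the 10 members (circles, above the line) and 5 other subunits (squares). Dotted lines mark 2-fold; all member intervals but that of Cacna1g lie between them, and Cacnb2 (red) is the 1 called gene shown.

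Levels were compared between genes as CPM per kilobase of the gene's exons (the union of all exons in GENCODE M21), since a longer transcript yields more reads. On that scale Cacna1e was first with 29.5 ± 2.90 (SD, n = 8 libraries), and its lowest library (23.7) was above the highest library of the next gene, Cacna2d3 (18.4 ± 1.97, highest 21.6). Then followed Cacna1b at 14.1 ± 2.23, Cacna2d1 at 10.2 ± 1.53, Cacna1c at 10.1 ± 1.57, Cacna1a at 7.56 ± 1.58, Cacna1i at 6.34 ± 1.69 and Cacna1h at 5.68 ± 0.990. Neighbours from Cacna2d3 down to Cacna1h overlapped in their ranges over libraries. Compared within each library, Cacna2d3 was above Cacna1b, and Cacna1b above Cacna2d1, in all 8. Cacna1c exceeded Cacna2d1 in 6 of the 8 libraries despite the lower mean. Cacna1c was above Cacna1a in 7, Cacna1a above Cacna1i in 7 and Cacna1i above Cacna1h in 5. Cacna1d at 2.14 ± 0.532 and Cacna1g at 0.380 ± 0.327 were each below the gene before with no overlap.

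The choice of length moved several places. By the longest annotated transcript, Cacna1e was at 49.8 ± 4.91 and Cacna2d3 at 43.4 ± 4.65 CPM per kilobase, and their ranges overlapped. Cacna1e was the higher in 6 of 8 libraries, the exceptions being dorsal striatum 3 and 4. Cacna2d1 (17.1) and Cacna1c (16.3) then came before Cacna1b (14.4), and Cacna1h (6.74) before Cacna1i (6.40). Cacna1e at the top of the 10 and Cacna1d and Cacna1g at the bottom held under both lengths and in plain CPM. Exons that these libraries do not use, and uneven coverage along a transcript, could shift such levels, and neither was tested.

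**Figure D3:**
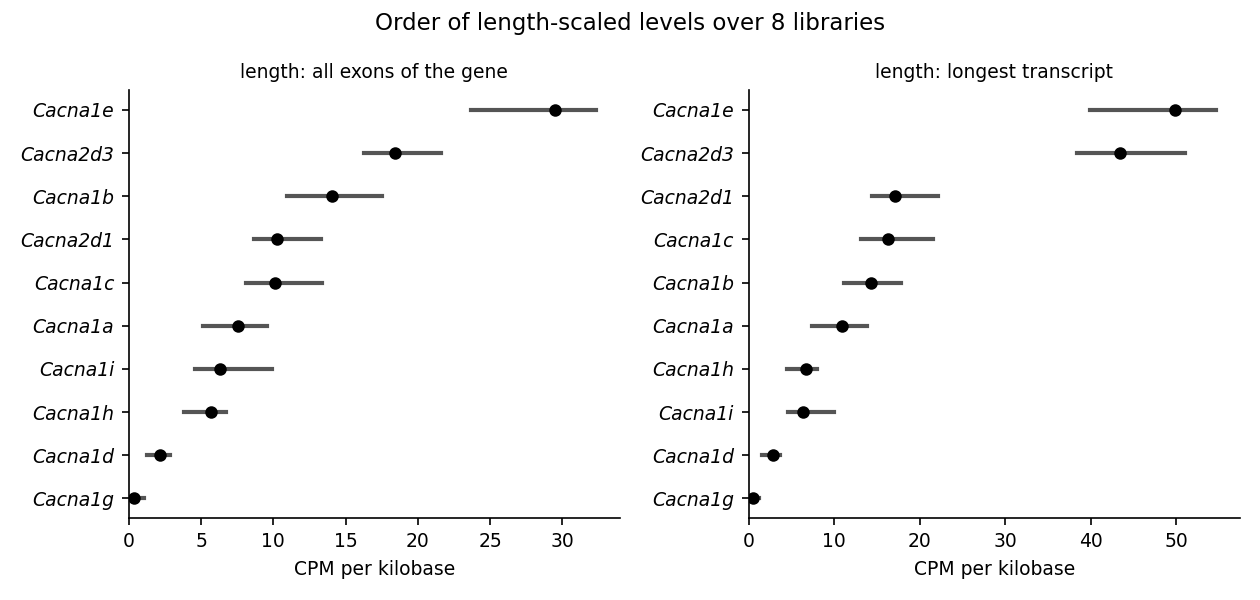
Mean (dot) and range over 8 libraries (bar) of CPM per kilobase for each member, with the length of all exons of the gene (left) or of its longest transcript (right). Cacna1e leads in both panels, clear of Cacna2d3 on the left and overlapping with it on the right, and Cacna1d and Cacna1g close both orders.

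Summed over the 8 pores, length-scaled levels were 77.7 ± 3.37 CPM per kilobase for dorsal striatum and 73.7 ± 3.44 for accumbens (SD, n = 4 each), with overlapping ranges. The R-type share of that sum was 39.0%, 36.2%, 30.1% and 36.3% in the dorsal libraries and 43.0%, 40.8%, 40.9% and 46.2% in the accumbens libraries. Every accumbens share was above every dorsal one, and dorsal striatum 3 was the lowest. The region means were 35.4% ± 3.79 and 42.7% ± 2.53, and the regions also stayed apart with the longest transcript as length (36.8% to 46.0% against 48.4% to 53.3%) and in plain CPM (45.6% to 55.7% against 57.9% to 61.8%). Behind these shares, Cacna1e averaged 27.5 CPM per kilobase in dorsal striatum and 31.5 in accumbens, and the other 7 pores together 50.2 ± 4.07 (46.5 to 54.9) and 42.3 ± 3.67 (37.7 to 46.3) CPM per kilobase (SD, n = 4 each). The sums of these 7 also lay apart between regions, by a narrow gap. The length-scaled and plain CPM shares rest on the same counts, with a fixed length per gene, so they are not independent of each other. The R-type share is also built from Cacna1e, whose own regions did not overlap. None of the 8 pores was called, and the shares and sums were given no test. How often such shares or sums lie apart between regions was not tested. For genes taken singly it was 9.69% of all tested genes and 13% of those averaging at least 20 CPM.

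Per kilobase, by either length, the shares of the other classes overlapped between regions. The N-type share was 19.0% ± 2.002 (dorsal) and 18.01% ± 3.08 (accumbens), and the P/Q-type share 10.6% ± 1.64 and 9.24% ± 1.70 (SD, n = 4 each). The L-type share was 17.1% ± 2.03 and 15.2% ± 1.85. The T-type share was 17.8% ± 1.92 and 14.8% ± 2.65, and the P/Q-, N- and R-type pores together held 65.0% ± 3.71 and 69.98% ± 3.37. In plain CPM these 3 classes together did not overlap, with 64.03% to 72.91% in dorsal striatum and 72.97% to 78.51% in accumbens, values that nearly met. Within the same library, the ratio of Cacna1e to Cacna1c per kilobase was 2.82, 3.002, 1.77 and 2.73 in dorsal striatum and 3.46, 3.93, 3.27 and 3.02 in accumbens. Those ratios did not overlap, though dorsal striatum 2 and accumbens 4 nearly met. They also contain Cacna1e, and the ratios and class shares were given no test. The ratios of Cacna1e to Cacna1b (1.89 ± 0.358 and 2.43 ± 0.449) and of Cacna1e to Cacna1a (3.38 ± 0.525 and 4.77 ± 1.13) overlapped between regions.

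**Figure D4:**
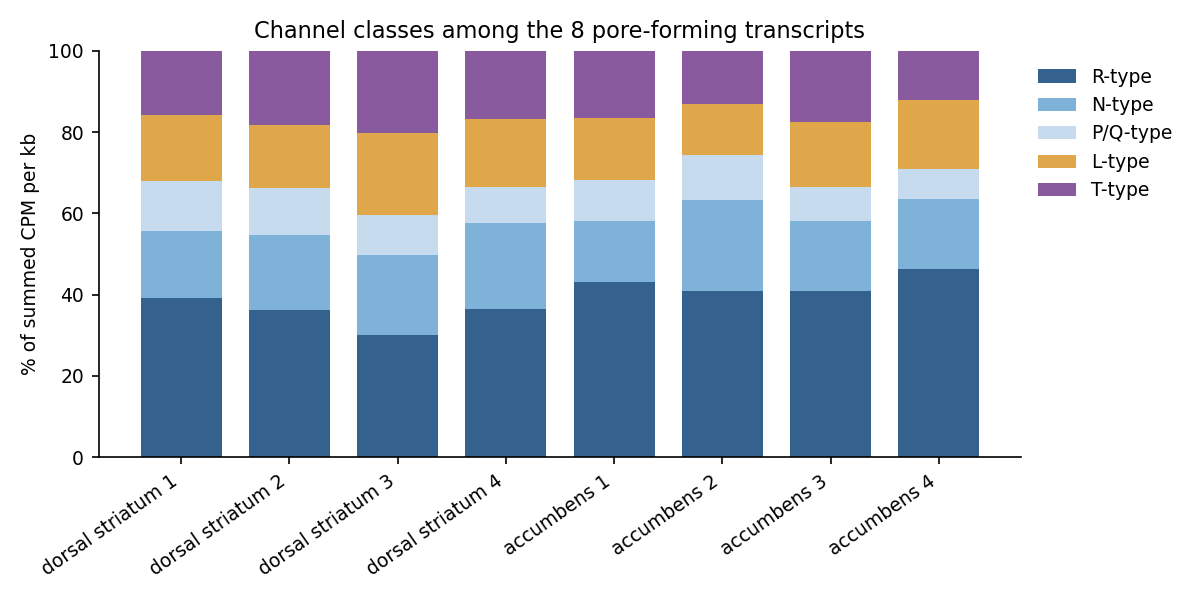
Share of each channel class in the summed CPM per kilobase (all exons) of the 8 pore-forming transcripts, 1 bar per library. The R-type share (bottom) is 30.1% to 39.0% in dorsal striatum and 40.8% to 46.2% in accumbens.

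The beta subunits, cytoplasmic proteins that bind the high-voltage-activated pores, held the 1 call among the other genes of the channel complex. Of 4 beta genes tested, 0 were called higher in accumbens and 1 lower, beside 2.12% of all tested genes called lower, and their median log2 fold change was -0.30. Cacnb2 (chromosome 2, 14603088 to 14987908) had 329.8, 265, 306 and 332 CPM in the dorsal libraries and 218, 208, 209 and 210.3 CPM in the accumbens libraries. All accumbens libraries lay below all dorsal ones, and close to each other. The means were 308 ± 31.1 and 211 ± 4.59 CPM (SD, n = 4 each), a log2 fold change of -0.55 ± 0.12 SE (edgeR adjusted p = 0.0161). The call was lost without dorsal striatum 1 (adjusted p = 0.0610), accumbens 3 (0.0531) or accumbens 4 (0.0512), without both accumbens 2 and dorsal striatum 3 (0.0659) and with a covariate of glial markers (0.189), at log2 fold changes of -0.45 to -0.54. The glial marker score was -0.28, 0.53, -0.41 and -0.95 in the dorsal libraries and 0.69, 0.10, 0.02 and 0.29 in accumbens. That covariate thus differed in part by region, and the 2 cannot be fully told apart. In GENCODE M21, 3 annotated genes on the opposite strand share 7.32% of the exon bases of Cacnb2, and the strand setting of the counting was not given.

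Cacnb4, the most abundant beta gene, had 633, 554, 738 and 749 CPM in the dorsal libraries and 465, 546, 472 and 529 CPM in the accumbens libraries. The regions did not overlap, dorsal striatum 2 and accumbens 2 being the nearest, but the gene was not called (log2 fold change -0.41 ± 0.12 SE, edgeR adjusted p = 0.0835, and 0.0452 without dorsal striatum 2). In GENCODE M21, 1 gene each on the opposite strand shares 16% of the exon bases of Cacnb4 and 1.77% of those of Cacnb1. Whether reads of those neighbours were counted was not tested. Cacnb1 (-0.19 ± 0.19 SE, edgeR adjusted p = 0.730) and Cacnb3 (-0.06 ± 0.17 SE, edgeR adjusted p = 0.931) overlapped between regions. Summed per kilobase of exon, the beta genes stood at 165 ± 5.42 in dorsal striatum (161 to 173) and 134 ± 5.97 in accumbens (127 to 142), without overlap, while the alpha2delta sum of Cacna2d1, Cacna2d2 and Cacna2d3 was 47.9 ± 2.08 and 47.4 ± 4.399 with overlap. Markers shared by striatal projection neurons moved in the same direction as Cacnb2. Their sum was 10858 to 12221 CPM in the dorsal libraries and 7433 to 8404 CPM in accumbens, and 5 of 8 were called lower in accumbens and 0 higher. Their part in the beta values was not tested, and the beta sum, which includes Cacnb2 and Cacnb4, was given no test.

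**Figure D5:**
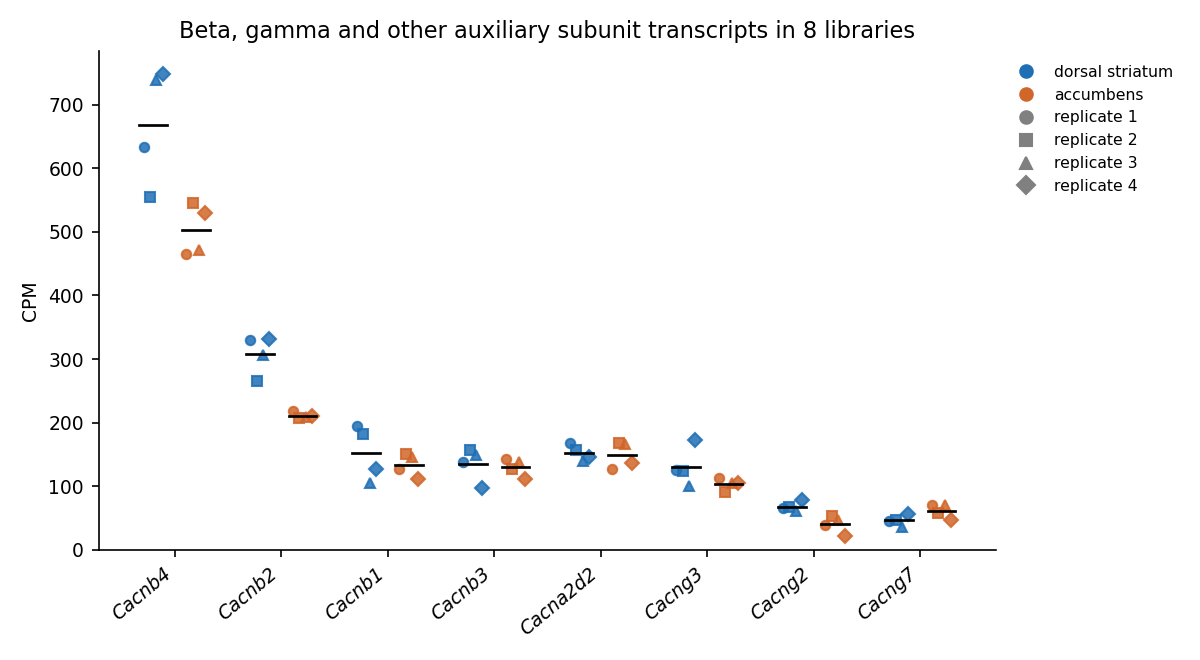
CPM of 4 beta, 1 alpha2delta and 3 gamma subunit transcripts in each library; blue is dorsal striatum, orange accumbens, marker shapes are replicate numbers and black lines are region means. Cacnb4, Cacnb2 and Cacng2 are the genes shown without overlap between regions, and of these Cacnb2 was called. Such gaps were found for 9.69% of all tested genes and 13% of those averaging at least 20 CPM. Cacng2 was named after its values were seen, and the other gamma genes are not shown.

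Several of the 8 gamma subunit genes encode AMPA receptor partners (TARPs) rather than calcium channel subunits. Of the 8, 6 were tested and 0 called, with 3 positive and 3 negative log2 fold changes. The share of all tested genes called was 3.72%, and 0 of 6 lies near it. Cacng3 was the most abundant (131 ± 30.1 and 104 ± 9.19 CPM, log2 fold change -0.33 ± 0.17 SE, edgeR adjusted p = 0.384). Cacng2, the gene of stargazin, is named for its values: it had 65.7, 66.7, 60.3 and 78.7 CPM in the dorsal libraries and 38.6, 52.97, 47.0 and 21.5 CPM in the accumbens libraries. Its regions did not overlap, and its log2 fold change of -0.76 ± 0.24 SE was not called by edgeR (adjusted p = 0.104) but was by limma-voom (0.0185), in edgeR when low counts were not filtered (0.0356) and by DESeq2 (0.0467). In GENCODE M21, 1 gene on the opposite strand shares 5.86% of the exon bases of Cacng2. Cacna1f, the L-type pore of the retina, and Cacng6 were at 0 in all 8 libraries. Cacna1s, the L-type pore of skeletal muscle, had counts in 2 libraries. Cacna2d4 was tested and had at most 5.26 CPM (log2 fold change -2.01 ± 1.12 SE, edgeR adjusted p = 0.438).

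There were 15 genes for proteins that bind or regulate these channels, such as the RIM, ELKS and RGK proteins. Of the 15, 10 were tested and 0 were called in either direction, 3 at an unadjusted p under 0.05. Over all tested genes the shares were 3.72% and 14.8%, and 0 of 10 lies near the first. DESeq2 and limma-voom called 0 of them as well. Akap5, whose product anchors kinases and calcineurin to L-type channels, was the most abundant at 1794 ± 229 CPM (dorsal) and 1467 ± 98.7 CPM (accumbens), with a difference that was not called (log2 fold change -0.29 ± 0.11 SE, edgeR adjusted p = 0.206). Its regions overlapped.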

How the data were processed

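The authors deposited 1 table of raw read counts by gene symbol for each library, with no normalization. The submitters' processing notes name STAR 2.0.0e, HTSeq and the mm10 build. Annotation, strand setting and read filters are not given in the sources used here. HTSeq's summary totals were 27.1% to 33.8% of counted reads in the dorsal libraries and 35.5% to 40.6% in accumbens, without overlap. These totals entered neither library sizes nor tests. Rn45s held 1.91% to 5.84% of gene counts in dorsal striatum and 5.66% to 6.71% in accumbens. The part of either in the regional differences was not tested. Libraries were grouped by title, and no pair agreed within sampling noise. Regions were compared with edgeR 4.0.16 (TMM, filterByExpr with a minimum count of 10, quasi-likelihood F test, region as the only term) over 12467 genes, with calls where the Benjamini-Hochberg adjusted p was below 0.05. Intervals are 95% and come from the fold change, its F statistic and the moderated degrees of freedom. The same fit was tested on simulated data. Positions, exon lengths and overlaps come from GENCODE M21 (GRCm38, the build of mm10). Alternatives were RLE and upper-quartile normalization, 2 other filters, DESeq2 1.42.0, limma-voom (limma 3.58.1), a replicate block, a glial marker covariate, thinning and left-out libraries.

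The members and gene lists were chosen with earlier results of these data known. Named genes are the 10 members, the called and the most abundant gene of each related list, and Drd1, Drd2 and Rpl10a as checks. Genes of similar pattern were to be named for called members, of which there were 0. Cacng2, the other subunits given beside these and single marker genes other than the checks were named after their values were seen.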

Additional observations from a re-analysis of the deposited data

How the results depend on the processing

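The count of members called was 0 in all 18 alternatives, and 172 of the 180 values of the 10 members kept their direction and side of the threshold. The reversals were of alpha2delta genes near 0. With 1 library left out, log2 fold changes ran from -0.095 to 0.13 for Cacna2d1, -0.10 to 0.037 for Cacna2d3 and -0.093 to 0.046 for Cacna2d2, and, among genes given in the other observations, from -0.054 to 0.090 for Kcnma1, -0.026 to 0.083 for Unc80 and -0.030 to 0.17 for Rpl10a. Without both accumbens 2 and dorsal striatum 3 they were -0.027 for Cacna2d1, 0.0055 for Cacna2d3, -0.064 for Kcnma1 and -0.062 for Rpl10a. Limma-voom gave 0.046 for Cacna2d3 and -0.0063 for Kcnma1, and the glial marker covariate 0.048 for Cacna2d3 and 0.0017 for Cacna2d2. Among the pores, with all libraries kept, moves of over 1.5 times in the log2 fold change came with the glial marker covariate (Cacna1a -0.43, Cacna1b -0.06), limma-voom (Cacna1a -0.41, Cacna1b -0.22, Cacna1g -0.24) and the replicate block (Cacna1g -0.23).

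Over all genes, 464 were called, 200 of them higher in accumbens and 264 lower. DESeq2 called 793 (391 and 402), the glial marker covariate left 216 (84 and 132), and no filter on low counts gave 350 higher. The glial marker score itself differed in part by region, and the cause of these changes in count was not tested. Of the genes on the related lists, 1 (Cacnb2) was called. Without a filter on low counts, with DESeq2 and with limma-voom there were 2, and with the covariate or without both accumbens 2 and dorsal striatum 3 there were 0. Leaving out 1 library gave 0 to 2. Deviations of same-numbered libraries from their region means were hardly correlated (-0.08 to 0.01). The labels do not say what a replicate number shares between regions. These correlations cannot tell, since other differences between libraries could hide a shared source. With the replicate block 432 genes were called, again with 0 members.

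With the longest transcript as length, shares in dorsal striatum and accumbens were 42.5% and 50.2% for R-type, 13.8% and 12.8% for N-type and 13.9% and 11.3% for T-type. In plain CPM they were 52.0% and 59.6% for R-type, 11.04% and 9.93% for N-type, 7.05% and 5.86% for P/Q-type, 70.1% and 75.4% for these 3 together and 10.2% and 8.07% for T-type, and 19.7% for L-type in dorsal striatum. These shifts follow from the lengths used. Thinning all libraries to the smallest total gave -0.81 for Cacna1g, beside -0.79 as deposited.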

Other observations

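Among genes of channels that work beside the calcium channels, 0 were called between regions. Few were tested, and 0 lies near the 3.72% called over all tested genes. Of 8 genes for calcium-activated potassium channels, which calcium entry opens, 5 were tested and 0 were called by edgeR, DESeq2 or limma-voom, with 0 at an unadjusted p under 0.05 in edgeR. Kcnma1, the large-conductance channel, averaged 151 ± 15.3 CPM over the dorsal libraries and 154 ± 21.9 CPM over the accumbens libraries (SD; log2 fold change 0.02 ± 0.15 SE, edgeR adjusted p = 0.973, interval 0.820-fold to 1.26-fold). Of the 5 listed genes of the sodium leak channel complex, 4 were in the tables and tested, and 0 were called by any of the 3 tools. Unc80, a large subunit of that complex, averaged 467 ± 45.7 (dorsal) and 479.9 ± 27.4 (accumbens) CPM (SD; log2 fold change 0.04 ± 0.12 SE, edgeR adjusted p = 0.931). Rpl10a, whose protein carries the tag, had a log2 fold change of 0.09 ± 0.15 SE (edgeR adjusted p = 0.868), and the D2 receptor gene Drd2 had 1.11 ± 0.25 SE (adjusted p = 0.0167). Drd2 was not called when accumbens 1 (0.0759), dorsal striatum 4 (0.0569) or dorsal striatum 3 (0.0509) was left out, or with the glial marker covariate (0.268).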
